A study of Mus musculus with 14 samples.

Results

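Foxp1, Foxp2, Satb1, Tbr1, Eomes, Irx2, Bnc2 and Zic1 are transcription factors that mark subtypes of retinal ganglion cells (RGCs). These 8 genes were taken by name, with all 28 of their probe sets that carry a single gene, out of 18193 genes and 45037 probe sets measured in 14 single cells. The question asked of them was which cells held which combination. The cells were tdTomato+ RGCs from dissociated retinas of adult mice. The mice were double heterozygous for PV-Cre, which expresses Cre recombinase in parvalbumin (Pvalb) cells, and for the Ai9 reporter. The labels give the Cre line as 129P2/OlaHsd and the reporter line as C57BL/6 and 129 SV. The paper instead describes a segregating background of C57BL/6 and 129P2/OlaHsd for the Cre line and a congenic C57BL/6J reporter line. It could not fully exclude a retinal degeneration allele, though no degeneration was seen. All 14 cells formed a single group, numbered here cell 1 to cell 14. There was no second genotype or treatment, and no animal was named for any cell. Because tdTomato stays on in any cell in which Cre has acted, the label marks past as well as present Pvalb expression, and brightly labelled cells were easier to isolate than dim ones.

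RGCs carry the output of the retina to the brain, and their subtypes differ in shape, light response and target. Transcription factors such as these are used to tell the subtypes apart. In the mouse retina, Foxp2 marks the F-RGCs, of which some also express its relative Foxp1, and the FoxP proteins bind DNA as dimers with themselves or each other. Satb1, a chromatin organiser, is known from ON-OFF direction-selective RGCs. Tbr1, a T-box factor, is known from RGCs with dendrites in the OFF layers, J-RGCs among them, and its close relative Eomes (Tbr2) is needed for the intrinsically photosensitive RGCs. Irx2 is an Iroquois homeodomain factor, and Bnc2 and Zic1 are zinc finger proteins.

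A probe set counted as detected where its MAS5 signal, a brightness on a linear scale, reached 8 times the array median. Where a gene had several, the one brightest on average (mean of log2 signals) made the call for the gene and is named the chosen probe set below. The threshold lay between signals of 64.2 in cell 14 and 439.7 in cell 1, and 4191 (cell 5) to 11910 (cell 12) probe sets were detected per cell. Of 10 RGC markers measured, each cell showed 8 to 10, including Sncg, Nefl, Nefm, Thy1 and Slc17a6 in every cell. Pvalb was detected in 13 cells and read 7.27 in cell 5. Cells 3 and 6 stood apart by their rod transcripts, with 11 and 9 of 13 rod markers detected and summed rod signals of 156530 and 74265, against 1 to 3 markers and sums of 377 to 17601 in the other 12 cells. Cell 6 also held the endothelial markers Cldn5 (7992) and Kdr (2152).

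Most cells held 1 or more of the 8 factors. Of 112 values, 8 genes in 14 cells, 19 were detected (17.0%), against 25.2% of values over all genes. At least 1 factor was found in 11 cells. Of these, 5 cells held 1 factor, 4 cells held 2 and cells 10 and 12 held 3, and none was called in cells 1, 11 and 14. With 10 different sets among 14 cells, counting the empty set, few cells shared a combination. The number of sets that other groups of 8 genes form was not examined. Foxp1 with Foxp2 was the set of cells 3 and 6, Foxp2 alone that of cells 5 and 13, and each of the other 7 non-empty sets occurred in a single cell. Cell 8 had Foxp1 alone, cell 7 Satb1 alone and cell 2 Tbr1 alone. Cell 9 had Foxp1 and Satb1, and cell 4 Satb1 and Tbr1. Cell 10 combined Foxp1, Foxp2 and Tbr1, and cell 12 combined Satb1, Tbr1 and Bnc2. The RNA had gone through 35 cycles of PCR, and a missing call does not show that a cell lacked the transcript.

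**Figure D1:**
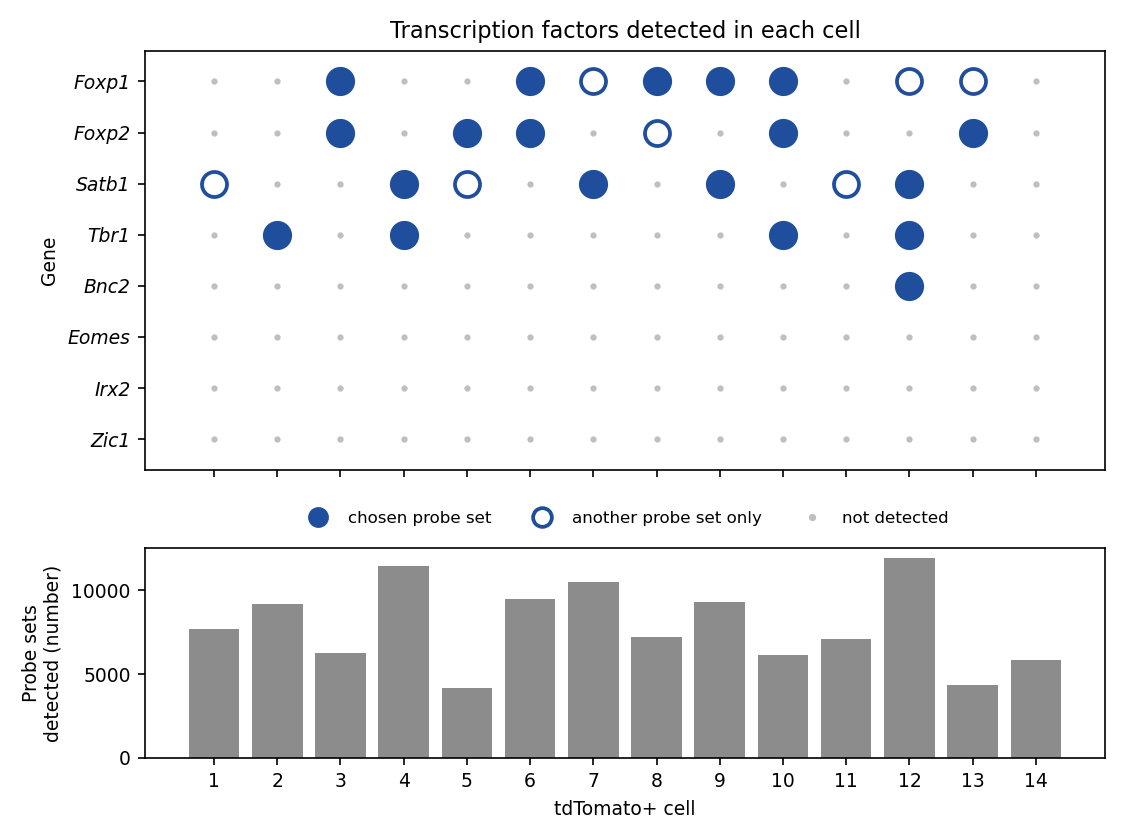
Detection of the 8 factors (rows) in each tdTomato+ cell (columns), with filled circles for the chosen probe set, open circles where only another probe set of the gene was detected, and grey dots where none was. The bars give the number of probe sets detected per cell. Foxp2 and Satb1 share no filled column, and Eomes, Irx2 and Zic1 have no circle.

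Read against all genes, the number of cells per factor was not unusual. Of the 8 factors, 5 were each detected in at least 1 cell, against 58.2% of all genes. Likewise, 4 were each detected in at least 4 cells, against 37.8% of all genes. The median was 2.5 cells per factor and 1 cell per gene over all genes. None of the 8 reached 7 cells, a number that 4507 of 18193 genes reached. Beside them, the general RGC factors spread more widely. Of 8 such genes measured, Pou4f1 (Brn3a) was in 13 cells, Isl1 in 10, Ebf1 in 9 and Ebf3 in 7, while Isl2 and Ebf4 were in 2 each and Pou4f3 and Ebf2 in none. Their median was 4.5 cells.

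**Figure D2:**
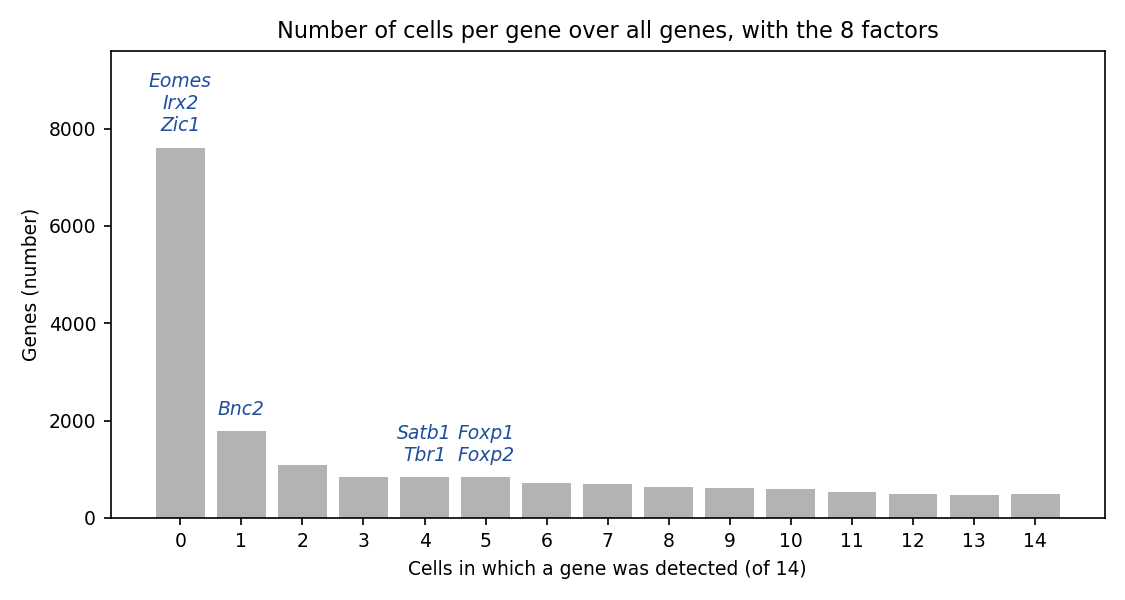
Genes counted (vertical axis) at each number of cells with a detected signal of the chosen probe set (horizontal axis), with the names of the 8 factors over their bars. Foxp1 and Foxp2 stand at 5 cells, Satb1 and Tbr1 at 4, Bnc2 at 1 and the other 3 at 0, where 7605 genes lie.

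Foxp1 was detected in 5 cells by its chosen probe set and in 3 more by others. The chosen probe set (1455242_at) read 19562 in cell 3, 7018 in cell 6, 4806 in cell 8, 795 in cell 9 and 22288 in cell 10. On this probe set the other 9 cells read 2.01 to 43.4. Foxp1 had 8 probe sets, and they named partly different cells. Probe set 1435221_at was detected in cells 6 (2062), 8 (5853.5), 10 (505.4), 12 (2312.5) and 13 (22208), and 1421140_a_at in cells 3 (9967), 7 (477.3) and 10 (1038). Cell 13 is the widest case, since it read 22208 on 1435221_at and 2.01 on the chosen probe set. Cell 6 alone was detected on 1435222_at (11656) and cell 8 alone on 1443258_at (12328), and 3 probe sets were detected nowhere. Probe sets 1455242_at, 1435221_at and 1435222_at were designed from a single sequence record, yet of the 7 cells called by any of them cell 6 was the only one called by all 3. By any probe set Foxp1 was found in 8 cells (3, 6, 7, 8, 9, 10, 12 and 13), and in 4 of them by at least 2 probe sets.

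Foxp2 was also found in 5 cells, with a somewhat better match between its probe sets. The chosen probe set (1438232_at) read 5042 in cell 3, 207.2 in cell 5, 8434 in cell 6, 9724 in cell 10 and 7756 in cell 13, against 0.998 to 79.9 in the 9 cells without detection. Cell 5 was the weakest of the 5, against a threshold of 65.3 there, and its Foxp2 signal was higher on 1440108_at (782.2). Probe set 1438231_at, made from the same sequence record as the chosen one, was detected in cells 3 (2005), 6 (690.3), 8 (127.4) and 10 (3702). Cell 13, at 7756 on the first, read 72.1 on the second. Cell 8 was the only cell added by the remaining probe sets, and 1458191_at alone read 6577 there, against at most 23.1 in every other cell. Foxp2 was found in 6 cells by any probe set, and in 5 of them by at least 2 probe sets.

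The FoxP genes overlapped in part. Of 5 cells with Foxp1 and 5 with Foxp2, 3 cells (3, 6 and 10) held both, or 60.0% of each. The overlap by any probe set was 5 cells (3, 6, 8, 10 and 13), which is 62.5% of the 8 Foxp1 cells and 83.3% of the 6 Foxp2 cells. Cells 7, 9 and 12 then had Foxp1 without Foxp2, and cell 5 had Foxp2 without Foxp1. Overlaps of other gene pairs found in as many cells were not examined, so these shares have no background to be read against. Across the 14 cells, Pearson's r between Foxp1 and Foxp2 on log2(signal + 32) was 0.63 and Spearman's rho was 0.37. These values are descriptions, since the genes of a cell share its amplification and the cells may share animals. Without cells 3 and 10, which lay farthest from the Foxp1 median, r was 0.35. The overlap also involves the cells with rod transcripts: of the 3 cells, 3 and 6 are those with 11 and 9 of 13 rod markers, while cell 10 had 1 rod marker and a summed rod signal of 1763. Without cells 3 and 6, cell 10 was the only cell with both genes on the chosen probe sets, and Foxp1 and Foxp2 were in 3 cells each. The part of the rod transcripts in this overlap was not tested. At a fixed signal of 1000 as the threshold, cells 3, 6 and 10 held both genes, whereas with the log2 signals of each gene's probe sets averaged, Foxp1 and Foxp2 were each in 0 cells and so was the pair.

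On the chosen probe sets, Satb1 and Foxp2 were called in different cells. The chosen probe set (1416008_at) was detected in cells 4 (895.4), 7 (963.9), 9 (1852) and 12 (1999), with 0.678 to 83.8 in the other 10 cells. Probe set 1416007_at, from the same sequence record, was detected in cells 1 (689.4), 4 (517.2), 7 (450.1) and 12 (3080), and read 2.51 in cell 9, where the chosen one read 1852. Probe set 1436182_at added cell 11 (876.5) and again found cells 7 (1187) and 12 (2365). Probe set 1439449_at read 11348 in cell 5 and at most 41.7 elsewhere, and the last of the 5 was detected in no cell. Satb1 was in 7 cells by any probe set, and cells 4, 7 and 12 had it by at least 2 probe sets.

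No cell held Satb1 and Foxp2 together on the chosen probe sets (0 of 4 Satb1 cells and 0 of 5 Foxp2 cells), with r = -0.38 and rho = -0.29 over 14 cells. Cells 1, 2, 8, 11 and 14 had neither. How often other pairs of genes with 4 and 5 cells share none was not examined. Counting every probe set, cell 5 had both, through a single Satb1 probe set, which is 14.3% of 7 Satb1 cells and 16.7% of 6 Foxp2 cells. With Foxp1, Satb1 shared cell 9 on the chosen probe sets and cells 7, 9 and 12 by any. The groups also differ in how many probe sets their cells yielded. In the order of detected probe sets, the Satb1 cells 12, 4, 7 and 9 stood at places 1, 2, 3 and 5 of 14, with 9307 to 11910, whereas the Foxp2 cells 6, 3, 10, 13 and 5 stood at places 4, 10, 11, 13 and 14, with 4191 to 9496. The part of this difference in the split between Satb1 and Foxp2 was not tested.

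**Figure D3:**
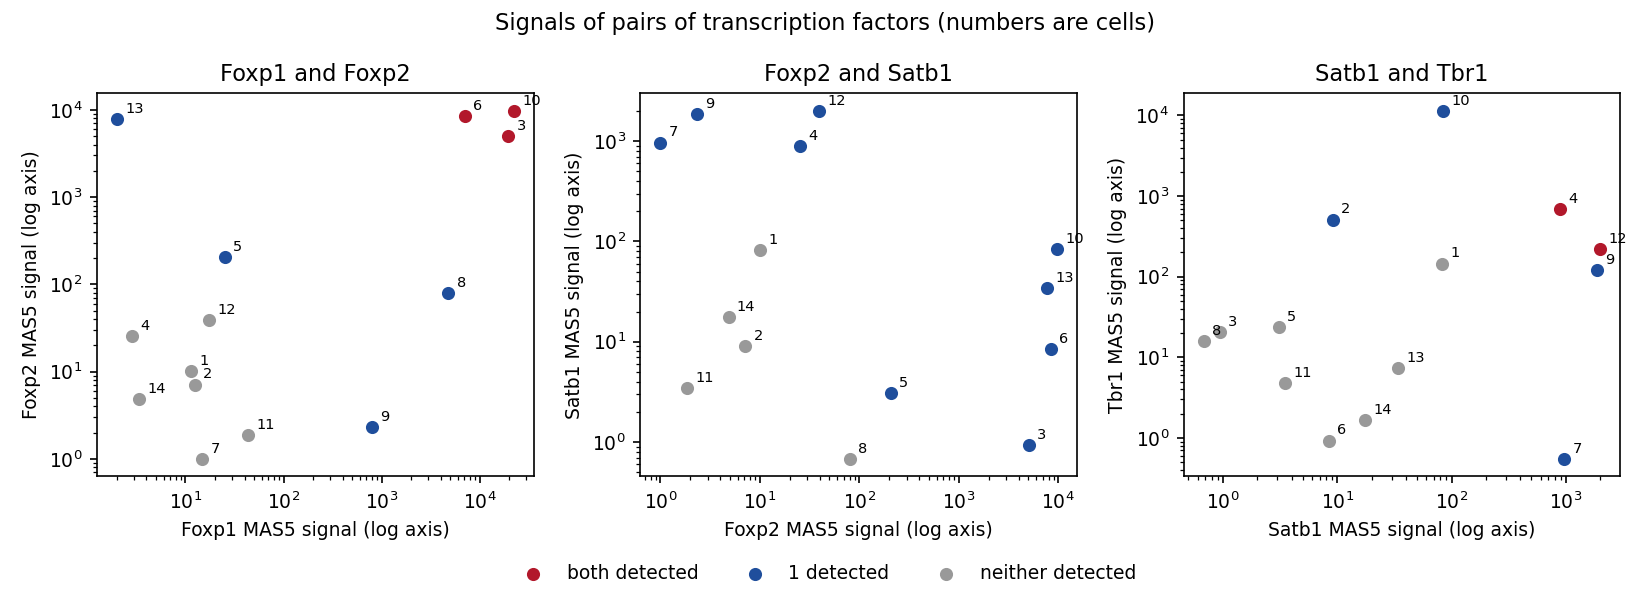
MAS5 signals (log axes, chosen probe sets) of Foxp1 and Foxp2, Foxp2 and Satb1, and Satb1 and Tbr1, with a point per cell and its number. Red points had both genes detected, blue points 1 and grey points neither. Cells 3, 6 and 10 lie high on both FoxP axes, whereas no cell is red in the middle panel.

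Tbr1, measured by a single probe set, was detected in 4 cells. It read 511.3 in cell 2, 690.0 in cell 4, 11387 in cell 10 and 218.0 in cell 12. Cell 10 thus stood far above the other 3. The remaining 10 cells read 0.546 to 145.2, and cell 1, with the highest of these, had the highest threshold of any array (439.7). Cell 12, at 218.0, was nearest to its threshold (130.0), and was lost at 16 times the array median. Satb1 was detected in 2 of the 4 Tbr1 cells (4 and 12), Foxp1 and Foxp2 in 1 (cell 10), and cell 2 held Tbr1 alone. The correlation of Tbr1 with Satb1 was r = 0.27 and rho = 0.31, and those with Foxp1 and Foxp2 were r = 0.20 and 0.13. Both of the last rest on cell 10, without which r was -0.32 with Foxp1 and -0.40 with Foxp2.

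Bnc2 was found in a single cell. In cell 12 it read 837.8 on the chosen probe set and 279.6 on a second, and the third was not detected. The chosen probe set read 1.30 to 122.3 in the other 13 cells, the highest being cell 7 just under its threshold of 124.8. Cell 12, which also had Satb1 and Tbr1, was the cell with the most detected probe sets.

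Eomes, Irx2 and Zic1 were not detected in any cell at 8 times the array median. The 2 Eomes probe sets read at most 57.8 (cell 11) and 106.4 (cell 10), and the 2 Zic1 probe sets at most 62.1 (cell 1) and 59.4 (cell 10). Irx2, with a single probe set, ran from 8.53 in cell 13 to 259.6 in cell 1, with a median of 37.9. It came nearest to the threshold in cell 5 (48.4, or 5.93 times the array median), cell 10 (191.2, 5.23 times) and cell 11 (76.5, 5.20 times), and the call depended on the setting: Irx2 passed in 4 cells (1, 5, 10 and 11) at 4 times the median, in 6 (1, 5, 7, 8, 10 and 12) above the Bacillus control probe sets and in 3 (5, 10 and 11) after quantile normalization. Eomes and Zic1 passed in no cell under any of the thresholds tried. Of 8 genes linked to photosensitive RGCs with Eomes, 4 were in no cell, beside 41.8% of all genes. These were Opn4 (melanopsin), Tbx20, Trpc6 and Trpc7. Adcyap1, the neuropeptide PACAP, was in cells 7, 12 and 13 (1528 to 12976). The growth factor Igf1 was in cells 2, 4 and 9, in cell 9 at 183.1, near the threshold of 168.0. Rasgrp1 was called in cell 5 at 71.0, below its highest undetected signal of 103.2. The phospholipase gene Plcb4 was in all 14 cells.

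**Figure D4:**
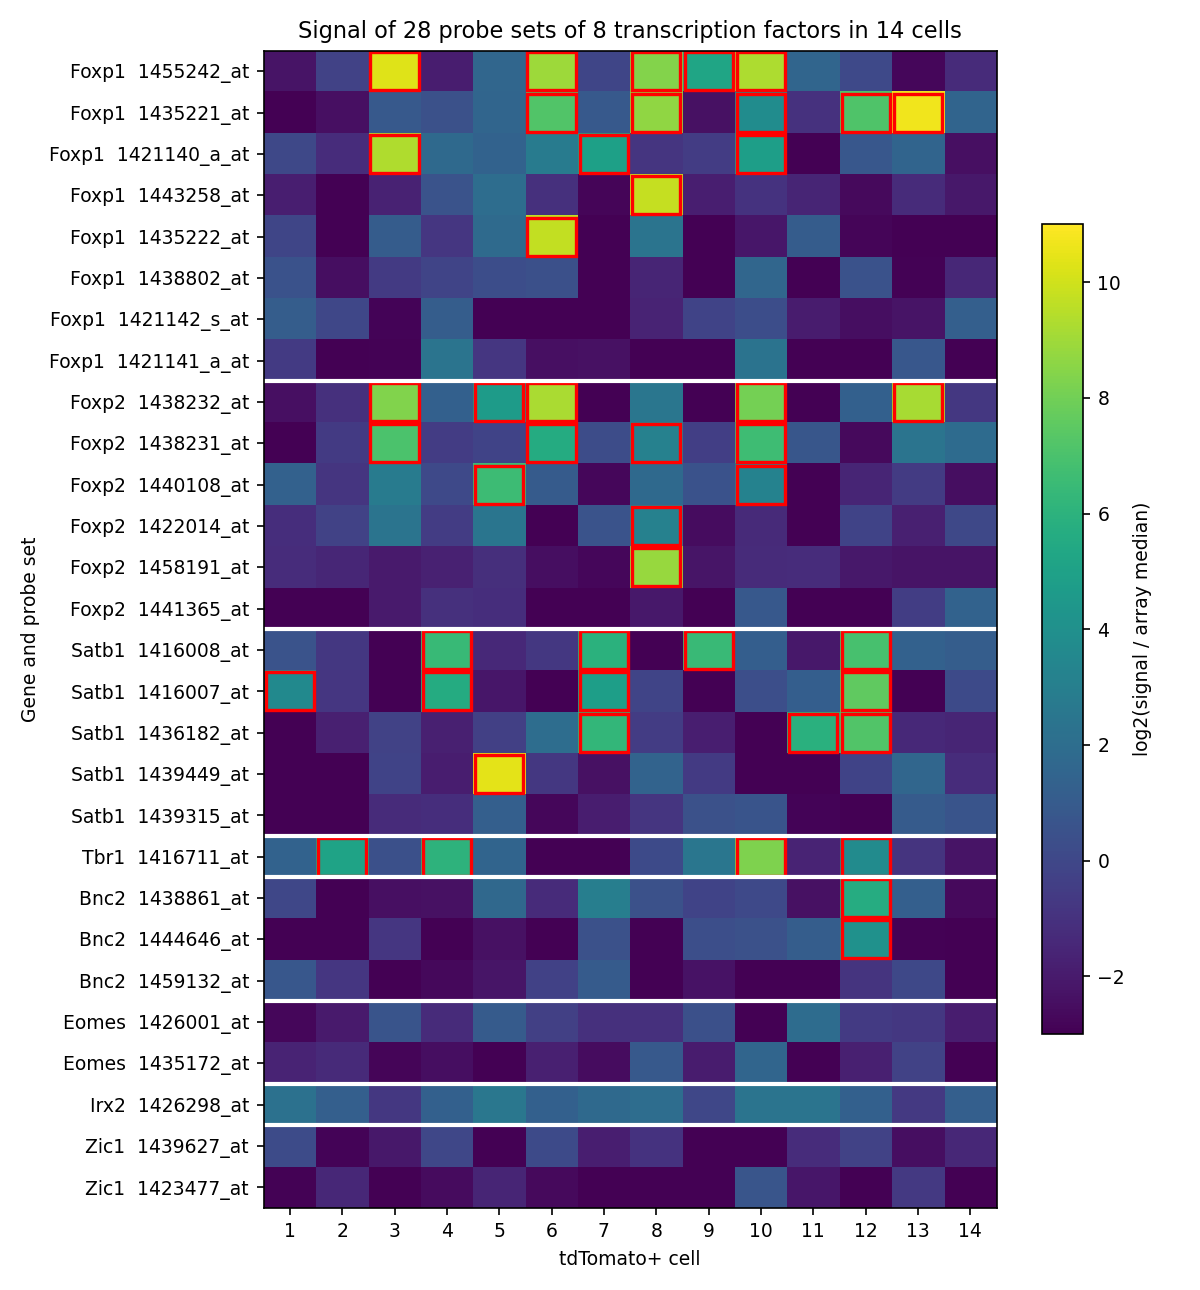
Signals of all 28 probe sets of the 8 factors (rows) in the 14 cells (columns), as log2 of the signal over the array median, with red frames where a probe set was detected (a value of 3 or more). Of the 28 probe sets 17 carry a frame, and probe sets of Foxp1, Foxp2 and Satb1 light up in partly different cells.

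Of the 28 probe sets of the 8 factors, 17 were each detected in at least 1 cell, against 53.7% of all probe sets with a single gene. Over the 26 probe sets of the 6 factors with several, 42 detections were made, and for 33 of them (78.6%) a second probe set of the gene was detected in that cell too. Over all genes with several probe sets this share was 67.8%. Foxp2 stood at 12 of 13, Foxp1 at 11 of 15 and Satb1 at 8 of 12. The 67.8% comes from 25762 probe sets of 9010 genes, which is fewer probe sets per gene than the factors had. A gene with more probe sets has more chances of another detection in the same cell. The shares were not matched for this, so they do not show whether the factors' probe sets match better than those of other genes. Counting any probe set, 26 of 112 values were detected (23.2%, against 26.9% over all genes), 13 cells held at least 1 factor, and cell 14 was the only cell without any.

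Relatives of the 8 factors were examined in the same cells. Of 16 paralogs measured, 7 were detected in 1 to 4 cells and 9 in none, beside 5 of the 8 factors and 58.2% of all genes in at least 1 cell. Foxp4 was in cells 1, 7 and 12 (737.2 to 1716), none of which held Foxp2. Foxp3, a factor of regulatory T cells, was called in 4 cells at 127.8 to 298.8, close to its highest undetected signal of 115.7. Tbx2, a T-box repressor, was in cells 2, 4, 9 and 12 at 170.2 to 951.3, 3 of which held Satb1 and 3 Tbr1, and read up to 220.3 where it was not called. The Iroquois genes Irx4 and Irx6 gave high signals in single cells, 9726 in cell 5 and 8405 in cell 13, against at most 76.7 and 96.2 elsewhere. Cells 5 and 13 yielded fewer detected probe sets than any other, and both carried Foxp2. Bnc1 and the 3 other Zic genes measured were in none.

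Genes that accompany the factors in known subtypes did not follow them closely. In the direction-selective list for Satb1, Pcdh8, a protocadherin, and Cartpt, which encodes a neuropeptide, each reached 10 cells, among them all 4 Satb1 cells. The cadherin Cdh6 was in cells 9 (189.0, near the threshold of 168.0 there) and 12 (956.6), both of them Satb1 cells. Fstl4 was in cell 12 (560.2). Mmp17 was in cell 5 (4127) and was called in cell 13 at 113.6, below its highest undetected signal of 118.8. Cntnap4, a contactin-associated protein, was in cell 6 (480.1). Cells 5, 6 and 13 are Foxp2 cells, while Cntn5 was in cell 2. Col25a1, a collagen, was called in cells 5 and 14 at 67.0 and 71.3, below its highest undetected signal of 291.9, and neither cell had Satb1 on the chosen probe set. The 8 genes measured had a median of 2 cells. Of 3 Tbr1 partners, the J-RGC marker Jam2 was in 10 cells and in 2 of the 4 Tbr1 cells (4 and 10), the sorting receptor Sorcs3 in cells 6 and 8, and Cdh8 in none. Pou4f1 was present in all 5 Foxp1 cells and in 4 of the 5 Foxp2 cells, the exception being cell 5. The calcium buffer Calb1 stands among the horizontal cell markers, not in these lists. It was detected in cells 2, 4, 7, 9 and 12 (951.7 to 36529). These cells take in all 4 Satb1 cells and no Foxp2 cell, while by any probe set cell 13, a Foxp2 cell, was added. Whether other genes detected in as many cells split this way was not examined. In the order of detected probe sets, cells 2, 4, 7, 9 and 12 stood at places 6, 2, 3, 5 and 1 of 14. Of the other horizontal cell markers, Onecut2 was in cell 13, and Lhx1, Onecut1 and Prox1 were in none.

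Amacrine cells also use several of these factors, so their markers were examined in the same cells. Of 10 amacrine markers, each cell showed 0 to 2, with summed signals of 178.4 to 24861. The shared neuronal factor Pax6, which RGCs also express, was in 12 cells and the glycine transporter Slc6a9 in 6 (cells 2, 4, 5, 6, 11 and 14), of which cells 5 and 6 had Foxp2 and cell 4 had Satb1. The vesicular GABA transporter Slc32a1 was called in cells 3, 5 and 8 at 85.9 to 138.7, with up to 145.1 where it was not called, and of these cells 3 and 5 had Foxp2 and cells 3 and 8 had Foxp1. Gad2 was in cell 1 (4015), which held none of the 8 factors, and on the chosen probe sets Gad1, Tfap2a, Tfap2b, Tfap2c, Chat and Th were in no cell. The 5 Foxp2 cells summed to 178.4 to 12247 over the list, the 4 Satb1 cells to 3986 to 9610. These sums include Pax6, which read 2091 to 20061 where it was called. On the chosen probe sets it was the only amacrine marker called in cells 7, 9, 10 and 12, and it was not called in cells 5 and 13.

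The genes most like each factor were sought among 6882 others detected in at least 4 cells, by Pearson's r on log2(signal + 32) over the 14 cells. Amplification and depth are shared by all genes of a cell, and the values are descriptions. Insrr, the insulin receptor-related receptor, came closest to Foxp1 (r = 0.95, rho = 0.67). It was detected in all 5 Foxp1 cells, at 15009 in cell 3, 2697 in cell 6, 1078 in cell 8, 781 in cell 9 and 9118 in cell 10, and more weakly in cells 11 (158.0) and 13 (246.4). Gpr83, a G protein-coupled receptor, followed with r = 0.89 (rho = 0.63) and was found in cells 3, 6, 8 and 10 (533.1 to 8915), against at most 22.0 elsewhere. Tmem252 (r = 0.83) was in 10 cells at low signals of 71.5 to 652.9.

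Foxp2 was most closely followed by Pcdh10, a protocadherin (r = 0.81, rho = 0.74). It was in all 5 Foxp2 cells, at 2459 or more, and in cells 7, 8 and 12. Its signals were 18048 in cell 13, 6928 in cell 5 and 2841 in cell 8, the cell where Foxp2 was seen by other probe sets. Tchp (r = 0.80) and the secreted protein Dkk3 (r = 0.78) each shared 4 cells with Foxp2. Dkk3 is otherwise a marker of Müller glia and stands in the marker list for them, where cells showed 0 to 5 of 11 markers. The Foxp2 cells had 0 (cell 5) to 5 (cell 6) of these 11, with summed signals of 168.3 to 59741, against 1 to 5 and 6290 to 71388 in the other 9 cells. Both the counts and the sums include Dkk3 itself, which was picked for its likeness to Foxp2. Dkk3 read 8197 to 26921 in Foxp2 cells 3, 6, 10 and 13 and 1.88 in cell 5, against up to 9044 (cell 1) in the other cells. Besides Dkk3 in 7 cells, Clu was in 12 cells (3000 to 55989, 3 of the 5 Foxp2 cells), Glul in 8 (417 to 15865, 2 Foxp2 cells) and Rlbp1 in 4 (234 to 4132, 1 Foxp2 cell). Kcnj10 was in cell 6 (554.9) and Slc1a3 in cell 10 (345.6), both Foxp2 cells, Vim was in cell 4 (854.3), and Aqp4, Apoe, Sox9 and Hes1 were in none. The part of these transcripts in the likeness of Dkk3 to Foxp2 was not tested.

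For Satb1, the glycolytic regulator Pfkfb3 (r = 0.94, rho = 0.59) was detected in the same 4 cells, at 1669 in cell 4, 7968 in cell 7, 2363 in cell 9 and 1839 in cell 12, with at most 34.5 elsewhere. Fcf1, a ribosomal RNA processing factor (r = 0.92), was in the same 4 cells as well, though at 138.9 in cell 7, near the threshold of 124.8. Zmym5, a zinc finger protein (r = 0.92), was in those and cell 2, and in 8 cells by any probe set. The Satb1 cells 12, 4, 7 and 9 stood at places 1, 2, 3 and 5 by detected probe sets. The part of this in their likeness to these genes was not tested. For Tbr1, the Wnt co-receptor Lrp6 (r = 0.90, rho = 0.63) was in the same 4 cells at 238.2 to 872.4, with up to 120.0 in cell 1. Eif2b1 (r = 0.89), a subunit of a translation initiation factor, and Pold1 (r = 0.88), the catalytic subunit of a DNA polymerase, took in the 4 Tbr1 cells among 8 and 5.

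**Figure D5:**
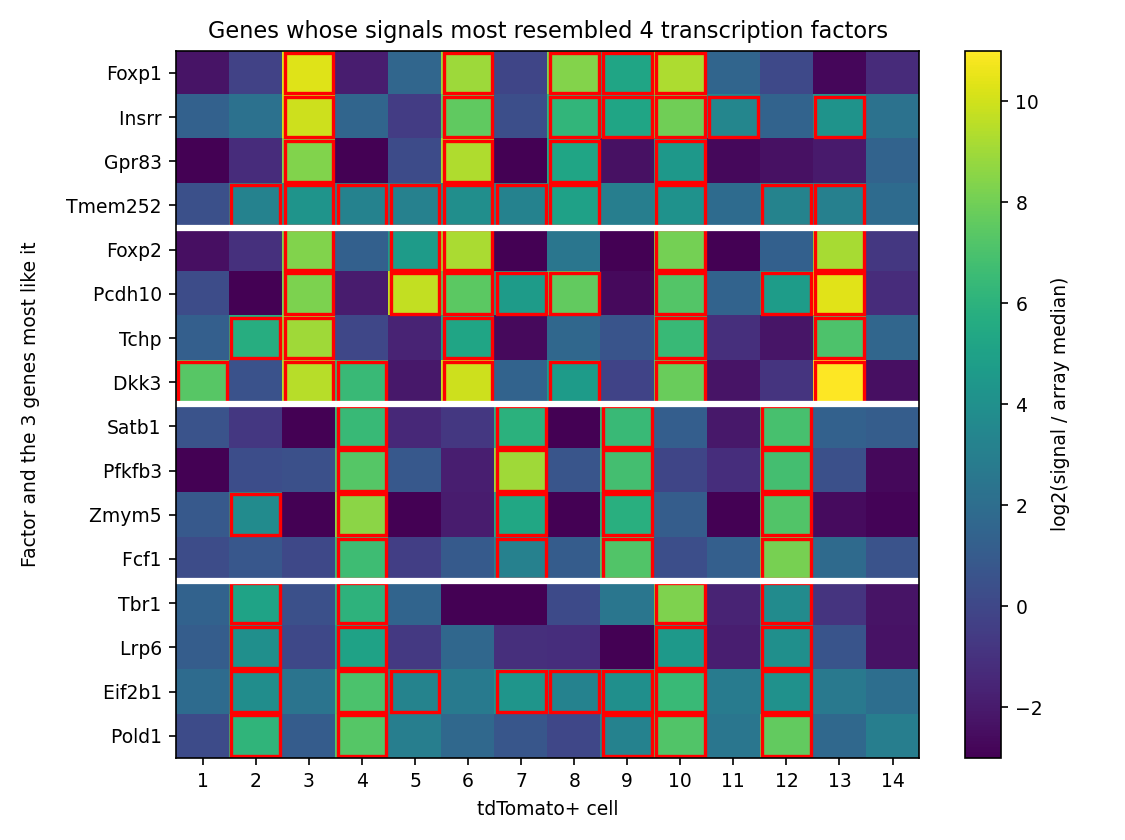
Signals of Foxp1, Foxp2, Satb1 and Tbr1 and of the 3 genes most like each (indented rows) in the 14 cells (columns), as log2 of the signal over the array median, with red frames where detected. Pfkfb3 and Fcf1 carry frames in the 4 Satb1 cells and Lrp6 in the 4 Tbr1 cells.

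The number of factors per cell and the number of detected probe sets per cell had r = 0.38 and rho = 0.39 over 14 cells. Cell 12, with 3 factors, had the most probe sets (11910), but cell 10, also with 3, had 6129, and cell 1 had none at 7710.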

How the data were processed

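Single-cell RNA was primed with oligo-dT for reverse transcription, amplified by 35 cycles of PCR, labelled with biotin and hybridised to Affymetrix Mouse430_2 arrays, 1 per cell. The values the authors deposited are MAS5 signal intensities per probe set on a linear scale. Every array had a 2% trimmed mean of 500.0, and no other normalization between arrays was added. Of 45101 probe sets, 64 controls were left out. In the array annotation 34945 had a single gene, of which 34741 matched a mouse gene table (GRCm38.p6, used for names only), 932 had several genes and 9160 were unnamed here. None of 378 values of 27 Bacillus subtilis control probe sets passed the detection threshold of 8 times the array median. No groups were compared and no test was run. The number of arrays limits the precision, and an array gives no counting error.

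The named genes were the 8 factors, fixed lists of paralogs, subtype partners, general RGC factors and cell type markers, and the 3 genes with the highest r for each factor detected in at least 4 cells. Members and lists were chosen with earlier results of these data known. Calculations used Python 3.11.15, pandas 2.3.3, NumPy 2.4.6 and SciPy 1.17.1. The search for like genes was tested on simulated data, in which 200 of 200 planted genes were recovered among 6882. The planted genes were scaled copies of Foxp1 with added noise, and the others were shuffled across cells. The depth that genes of a real cell share was thus absent, so the recovery does not show how the search fares with it. Alternatives were thresholds of 4 and 16 times the median, a signal of 1000 or the control probe sets, other uses of a gene's probe sets, quantile normalization, pseudocounts of 1 and 128, and leaving out cells 3 and 6 or 5 and 13.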

Additional observations from a re-analysis of the deposited data

How the results depend on the processing

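The counts of detected values (19), cells with at least 1 factor (11), combinations (10) and cells with Foxp1 and Foxp2 (3) stayed within 1.5 times under thresholds of 4 and 16 times the array median, quantile normalization and without cells 5 and 13. At a fixed signal of 1000 there were 11 detected values, 7 cells and 6 combinations, and above the control probe sets 30 detected values. With the log2 signals of a gene's probe sets averaged, 5 detected values, 4 cells, 3 combinations and 0 cells with Foxp1 and Foxp2 remained, since most probe sets of a gene were low in any cell. By any probe set 5 cells held Foxp1 and Foxp2, and without cells 3 and 6 it was 1 cell. Of the 12 genes most like a factor, 5 were again among the first 3 with a pseudocount of 1, 4 after quantile normalization, 3 without cells 3 and 6 and 7 without cells 5 and 13, and 10 with the larger pseudocount or with genes in at least 2 cells. Insrr and Pcdh10 stayed among the first 3 for Foxp1 and Foxp2 in all of these except Pcdh10 without cells 5 and 13. Pfkfb3 and Lrp6 fell to place 19 for Satb1 and Tbr1 with a pseudocount of 1. After quantile normalization, Fcf1 and Lrp6 were detected in too few cells to be ranked. The absence of a cell with Satb1 and Foxp2, examined after the data were seen, became 1 cell above the control probe sets and by any probe set.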
